A study of Rattus norvegicus with 180 samples.

Results

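The miR-200 family was followed across the 55 organs of a rat miRNA expression atlas measured on microarrays. Its members were taken by name, as every array ID without a star that begins with rno-miR-200a, rno-miR-200b or rno-miR-200c, together with rno-miR-141 and rno-miR-429. This gave 6 of the 717 miRNA IDs on the array. They stand for 5 miRNAs, since miR-200c has 2 IDs, rno-miR-200c and rno-miR-200c_v15.0. The atlas holds 180 one-colour arrays of total RNA from male Sprague-Dawley rats aged 10 weeks, with 1 array for each organ of each rat. In rats 4, 5 and 6 the blood was washed out with saline before 55 organs were collected from each, and in the untreated rats 1, 2 and 3 liver, kidney, lung, heart_atrium and heart_interventricular septum were taken without perfusion. The groups carried no drug, disease model or genetic change. Most organs were taken in bulk, so that each array mixes epithelium with the other cells of the organ, whereas the 6 intestinal samples from duodenum to rectum were scraped mucosal epithelium.

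The family is known as a set of epithelial miRNAs. Its members repress the transcription factors Zeb1 and Zeb2, which switch off E-cadherin and other adhesion genes of epithelial cells, and the Zeb factors in turn repress the miR-200 genes, so that the pair forms a mutual switch between epithelial and mesenchymal states. Targets are chosen mainly through the seed, a short stretch near the 5′ end of the mature miRNA.

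The members fell into 2 seed groups and 2 gene clusters, and their sequences are given because both divisions recur in the measurements below. All 5 hairpins and 2 of the mature forms matched the RefSeq miRNA table (GRCr8), and capitals mark the seed, bases 2 to 8 of the mature miRNA. The mature forms matched were those of miR-141 and miR-200c, while rno-miR-200a-3p, rno-miR-200b-3p and rno-miR-429-3p are named only. In the hairpins the capitals mark the same 7 letters wherever they occurred.
miR-200c-3p (chr4:159209969-159209989, minus strand): uAAUACUGccggguaaugaug
miR-141-3p (chr4:159209540-159209561, minus strand): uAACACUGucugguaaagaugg
Hairpin of miR-200c (chr4:159209965-159210033, minus strand): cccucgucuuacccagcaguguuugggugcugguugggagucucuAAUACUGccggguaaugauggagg
Hairpin of miR-141 (chr4:159209525-159209618, minus strand): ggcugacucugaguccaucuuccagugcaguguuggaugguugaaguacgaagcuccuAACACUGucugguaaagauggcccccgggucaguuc
Hairpin of miR-200b (chr5:171931495-171931589, minus strand): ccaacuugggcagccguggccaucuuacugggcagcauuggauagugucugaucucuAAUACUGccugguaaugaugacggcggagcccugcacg
Hairpin of miR-200a (chr5:171930717-171930805, minus strand): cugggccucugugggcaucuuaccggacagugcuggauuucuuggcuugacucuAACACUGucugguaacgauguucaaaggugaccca
Hairpin of miR-429 (chr5:171929682-171929766, minus strand): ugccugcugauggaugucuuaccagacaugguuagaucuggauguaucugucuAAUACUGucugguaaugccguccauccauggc

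The seed AAUACUG was found in the hairpins of miR-200b, miR-200c and miR-429, and the seed AACACUG in those of miR-200a and miR-141. From miR-200c to miR-141 the seeds differ by U4C, counted from the 5′ end of the mature miRNA. Each seed occurred in 4 of the 419 rat hairpins of the table (0.955%), the others being Mir145 for AAUACUG, and Mir3575 and Mir3587 for AACACUG. The genes are arranged differently from the seeds. Hairpins of miR-200b, miR-200a and miR-429 lie within 1908 bases of chromosome 5, and those of miR-200c and miR-141 within 509 bases of chromosome 4. Each cluster thus carries both seeds. The probe sequences of the 2 miR-200c IDs were not analysed here.

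Values are normalized signal intensities in arbitrary units, scaled to a common 75th percentile between arrays. Signals below 10.8 were set to that floor, and a miRNA was called detected on an array where more than 50% of its spots were well above background. Between 86 and 244 of the 717 miRNAs were detected per array (median 161.5 (n = 180)), and no spot of a miRNA was saturated. Each member was read by 20 spots of 2 probes, whose signals correlated across the arrays with detection at r = 0.99 or above (75 to 102 arrays; a description, since both probes share each array). The level of one member cannot be set against that of another, because probes differ in brightness. The paper cautions that cross-hybridization, the binding of a probe to a similar miRNA, is reduced but not removed within miRNA subfamilies. How far it enters the signals of the members was not tested. Tissue labels could be checked only against miRNAs. The liver arrays alone held miR-122 above 18.4, and the pancreas arrays alone held the acinar miR-216a and miR-217 above a sum of 47.7. Lymphoid miRNAs summed to at least 16418 in the 5 lymphoid and blood-forming organs, thymus included, and to at most 6259 elsewhere. The 4 neural miRNAs did not separate the organs, with sums from 152 to 20329 in the 10 neural organs and up to 12406 elsewhere. One array stood apart for this family, that of the cervical lymph node of rat 4, and results that rest on it are given with and without it. The pancreas arrays were the dimmest, with 75th percentiles of 121, 90.5 and 68.0 before scaling, against a range of 336 to 6343 in the other organs.

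The family was detected in all 25 organs classed by hand as lined by, or built largely from, surface or glandular epithelium. It was at or near the floor in most others. Liver, adrenal gland, testis, thymus, eyeball and pituitary gland were left unclassed and are described below. All 75 arrays of the 25 lined organs detected miR-200a, miR-200b, miR-429, miR-141 and miR-200c_v15.0, and 69 of them detected miR-200c. In the 72 arrays of the 24 unlined organs (nervous system, muscle, heart, vessels, adipose tissue and lymphoid organs), detection fell to 5 arrays for miR-200b, 4 each for miR-200a and miR-429, 1 each for miR-200c and miR-141, and 17 for miR-200c_v15.0. Over all 55 organs, detection on all 3 arrays ran from 23 organs for miR-200c to 32 for miR-200c_v15.0. In bulk samples such as these, fewer epithelial cells and less of the miRNA per cell cannot be told apart.

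**Figure D1:**
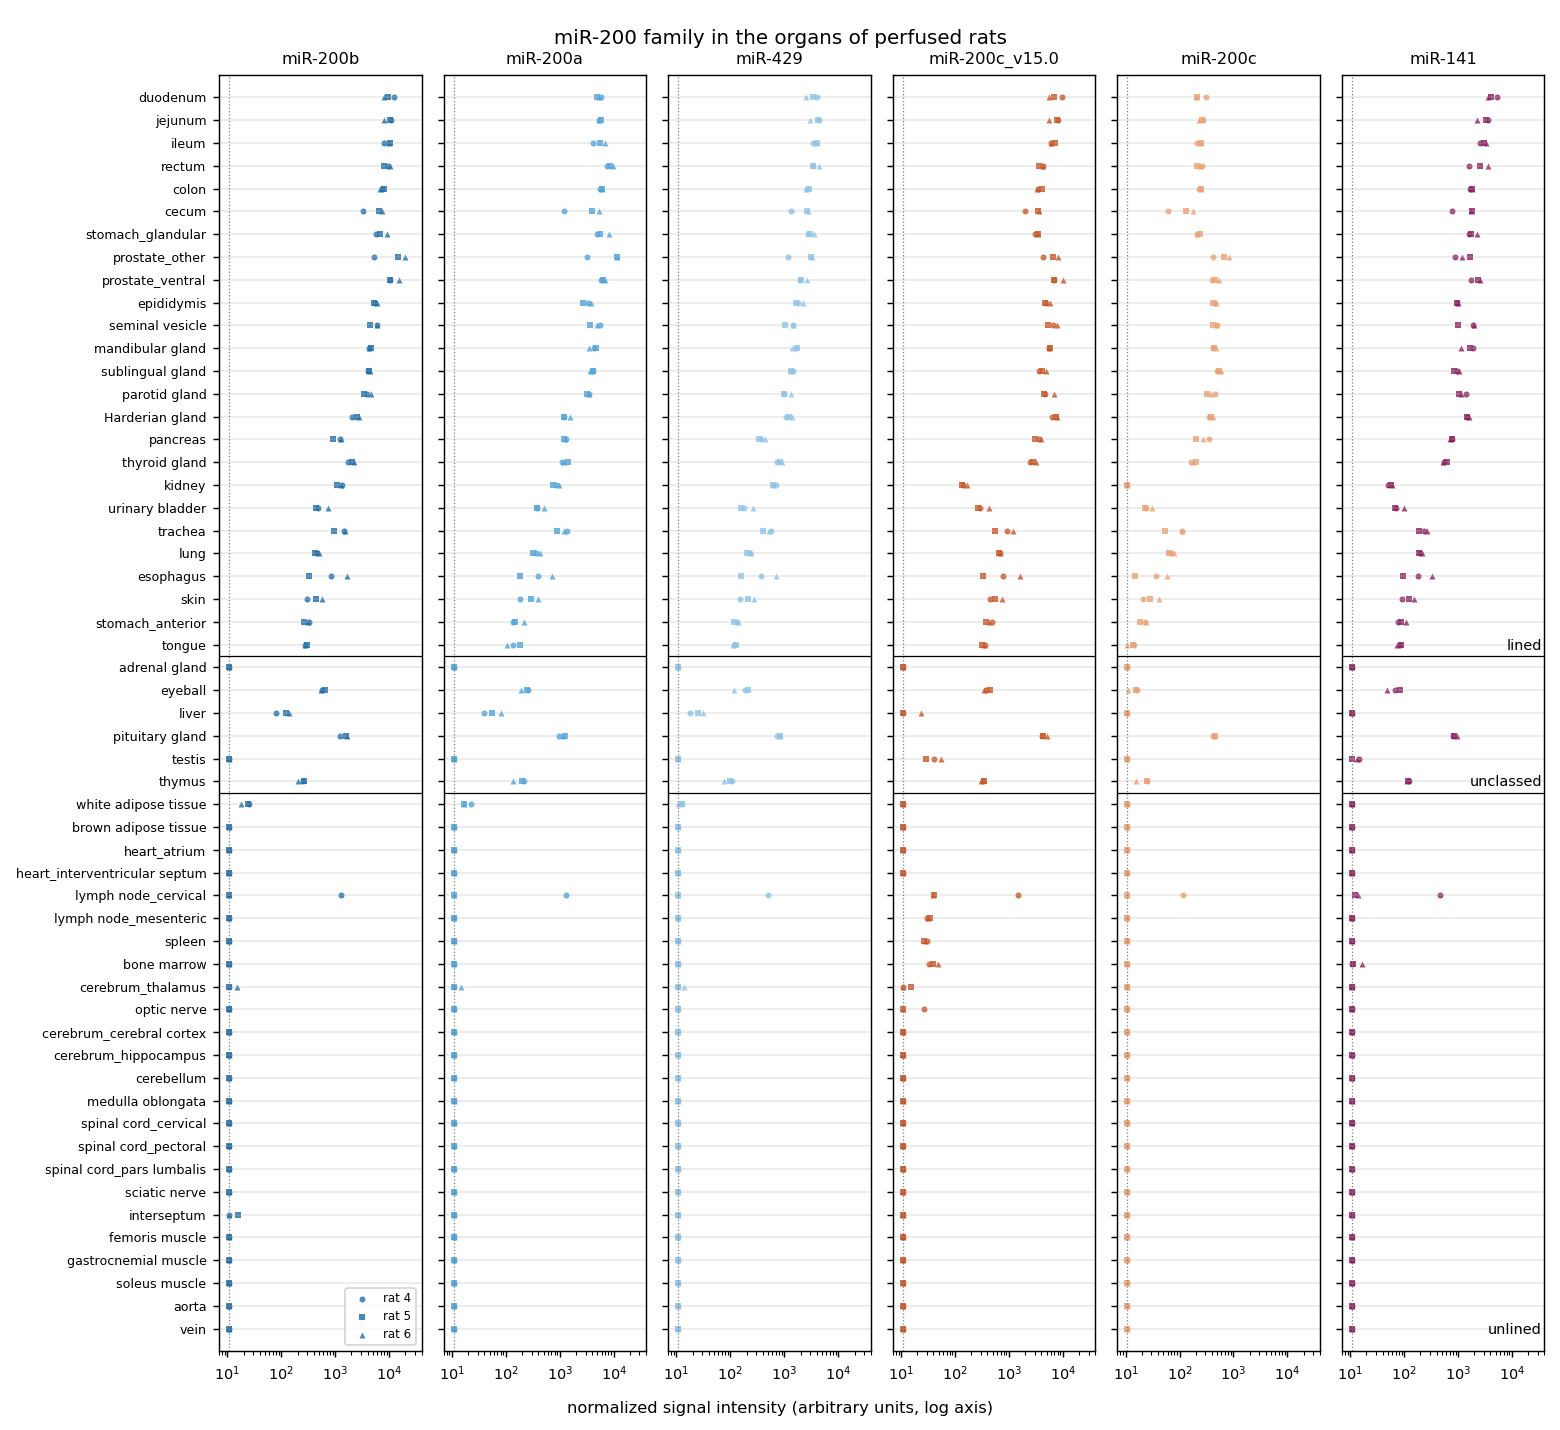
Normalized signal intensity (log axis, arbitrary units) of the 6 miR-200 family IDs in each of 55 organs, with 1 point for each of the perfused rats 4, 5 and 6 and a dotted line at the floor of 10.8. Horizontal lines part the 25 lined, 6 unclassed and 24 unlined organs; points lie above the floor in all lined organs except for miR-200c, which is at the floor in kidney and within 6 times the floor in tongue, anterior stomach, urinary bladder, skin and esophagus, and the lone high points in the unlined block belong to the cervical lymph node of rat 4.

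For miR-200b, miR-200a, miR-429 and miR-141 the highest organ means were in scraped intestinal mucosa, glandular stomach and the male tract. The order differed for rno-miR-200c, whose organ means ran from 271 to 539 in exocrine glands and from 124 to 254 in intestinal mucosa. For rno-miR-200c_v15.0, glandular stomach (3312) lay below the means of all 5 exocrine glands. For miR-200b, the signal of rats 4, 5 and 6 was 12488, 9567 and 7976 in the duodenum, 10734, 10504 and 8177 in the jejunum and 8104, 10202 and 9778 in the ileum. In the same order, miR-141 gave 5350.5, 4008 and 3601, then 3647, 3312 and 2244, then 2524, 2983 and 3320.2, which made the duodenum the highest organ for this member. For miR-200b the ranges of the 3 segments overlapped, and for miR-141 the duodenum arrays overlapped those of the jejunum but lay above those of the ileum. In the large intestine, miR-200b was 7475, 7910.2 and 6896 in the colon and 9687, 8102 and 10172 in the rectum, while the cecum gave 3275, 6611 and 7474 with rat 4 lowest. The place of an organ depended on the member, since miR-200a ranked 2 of 55 in the rectum (8583 ± 1117 (SD, n = 3)), and miR-200c_v15.0 ranked 13 of 55 there (4077 ± 441 (SD, n = 3)).

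Separate prostate samples were measured, the ventral lobe and the remaining lobes. The remaining lobes, labelled prostate_other, held the highest mean of miR-200b (13187 ± 7471 (SD, n = 3)), miR-200a (8695 ± 4752 (SD, n = 3)) and miR-200c (643 ± 201 (SD, n = 3)), with rat 4 far below rats 5 and 6. The ventral lobe held the highest mean of miR-200c_v15.0, at 6854, 6911 and 9949. Epididymis and seminal vesicle followed, with miR-200b at 5348, 5176 and 6023 and 5910.5, 4431 and 6047. Rats differed by less in these ducts and glands than in the remaining prostate lobes.

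Among exocrine glands, the 3 salivary glands had overlapping levels. The sublingual gland had miR-200b at 4109.9, 4262 and 4364, the mandibular gland at 4290.5, 4671 and 4239 and the parotid gland at 3813, 3481 and 4634. The Harderian gland, a lipid-secreting gland behind the eye, had less miR-200b (2054, 2544 and 2764) but ranked 4 of 55 for miR-200c_v15.0 (6227, 7489.6 and 7684). The pancreas had 1249.6, 891 and 1288 for miR-200b and 3579, 2987 and 3893 for miR-200c_v15.0. Its miR-200c signal was called detected on 1 of 3 arrays at a mean of 271, and on these dim arrays the lowest detected miRNA lay between 115 and 273 after scaling. The thyroid gland, whose follicles are epithelial, had miR-200b at 1742, 2086 and 2203.

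Mean miR-200b in urinary bladder, lung and the squamous organs was lower than in any of the exocrine glands named above. Trachea, with a mean of 1295, lay above the pancreas. Urinary bladder gave 474, 445 and 721 for miR-200b and lung 462, 413 and 503. The 4 organs with squamous epithelium, tongue, skin, anterior stomach and esophagus, had mean signals of miR-200b from 284 to 947, with the tongue lowest. For miR-141 the same organs ranged from 82.9 to 202.7. Squamous organs thus lay below every organ of the intestinal mucosa, where the lowest organ mean was 5787 for miR-200b and 1451 for miR-141. This compares scraped mucosa with whole organs.

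The 6 organs left unclassed split in both directions. The pituitary gland was high, with miR-200b at 1219, 1576 and 1635 and miR-200c_v15.0 at 4039.6, 4309.7 and 5002. Eyeball and thymus were intermediate, with miR-200b at 561, 657 and 539 and 255, 263 and 205.5. The thymus has an epithelial framework, and the eyeball carries corneal, lens and pigment epithelia. Liver held miR-200b at 78.1, 121 and 137.9, detected on all 3 arrays, and miR-200a at 38.9, 56.2 and 82.6, detected on 2. The other liver members were not detected on any perfused array. Adrenal gland detected no member, and testis detected only miR-200c_v15.0, on 1 array.

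A low signal of miR-200c_v15.0 alone was found in blood-forming and lymphoid organs. It was 32.4, 39.9 and 49.1 in bone marrow, 30.1, 35.1 and 31.8 in the mesenteric lymph node and 30.4, 26.3 and 27.8 in the spleen, each detected on all 3 arrays. On those 9 arrays the other 5 IDs were not detected. White adipose tissue showed the reverse, with miR-200b at 24.8, 24.1 and 18.3 and miR-200a at 22.1, 16.9 and 16.5, and miR-429 at 12.7, 12.6 and 10.8 on all 3 arrays, and no detection of miR-200c_v15.0, miR-200c or miR-141. These values lie within 5 times the floor of 10.8. In the 10 organs of the nervous system, miR-200c_v15.0 was detected on 2 of 30 arrays and miR-200b on none.

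The order of the organs was only partly resolved by 3 rats. Taking the organs with detection on all 3 arrays from the highest to the lowest mean, the ranges of neighbouring organs overlapped in 23 of 29 steps for miR-200b, 23 of 28 for miR-200a, 22 of 28 for miR-429, 28 of 31 for miR-200c_v15.0, 19 of 22 for miR-200c and 21 of 27 for miR-141. White adipose tissue came last for miR-200b, miR-200a and miR-429, and its arrays lay below those of the organ before it for each. Pituitary gland lay above its neighbour kidney without overlap for miR-200a and miR-429. For miR-200b, the lowest thymus array (205.5) was above the highest liver array (137.9), and the lowest liver array (78.1) above the highest of white adipose tissue (24.8). From the highest organ mean to the lowest among detected organs, the span was 589-fold for miR-200b, 321-fold for miR-429, 76.4-fold for miR-141 and 29.8-fold for miR-200c. The spans cover different sets of organs.

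The first comparison asked how far lined organs differ from unlined ones, with the organ as the unit and 345 miRNAs tested by limma. Its p-values refer to the spread between organs, not between arrays. For the members that spread is understated, because most unlined arrays lie on the floor, where values are held equal. Related organs, such as the spinal cord levels, also count as separate units although they come from the same rats. All 6 members were higher in the 25 lined organs. Among the 345 miRNAs, 40 (11.6%) were higher and 77 (22.3%) lower. The log2 difference was 7.79 ± 0.38 (SE), adjusted p = 2.21e-23 for miR-200b, and 7.27 ± 0.39 (SE), adjusted p = 5.02e-22 for miR-200a. It was 6.40 ± 0.34 (SE), adjusted p = 5.02e-22 for miR-429, the third member of the chromosome 5 cluster. For the chromosome 4 cluster it was 7.35 ± 0.39 (SE), adjusted p = 5.02e-22 for miR-200c_v15.0, 5.88 ± 0.40 (SE), adjusted p = 7.2e-18 for miR-141 and 3.68 ± 0.37 (SE), adjusted p = 1.42e-11 for miR-200c. In geometric means this was 221-fold for miR-200b and 58.7-fold for miR-141, values that depend on the floor since most unlined arrays lie on it. Within single rats the miR-200a difference was 6.91, 7.33 and 7.56 in rats 4, 5 and 6. The arrays were scanned on 3 days that largely followed the rats, and within the days the difference was 6.38, 7.33 and 7.55. Without the cervical lymph node array of rat 4 it was 7.36. The 6 members were also higher when the scraped mucosa was left out.

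Other miRNA lists in this comparison put the family in context. These lists were chosen with earlier results of these data known. Of 10 other miRNAs known from epithelia, all 10 were higher in lined organs, with a median difference of 2.74 on the log2 scale, against 6.83 for the members and 0 over all miRNAs tested. Among them miR-96, a member of a cluster best known from sensory epithelium, differed by 4.35 ± 0.32 (SE), adjusted p = 1.82e-16. The squamous miR-205 differed by 3.32 ± 0.43 (SE), adjusted p = 1.62e-08. None of 9 mesenchymal and muscle miRNAs passed the test in either direction (median 0.53), and smooth muscle miR-143 differed by 1.02 ± 0.45 (SE), adjusted p = 0.0739. All 4 neural miRNAs were lower (median -2.60), and of 5 lymphoid miRNAs 1 was lower, miR-150.

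**Figure D2:**
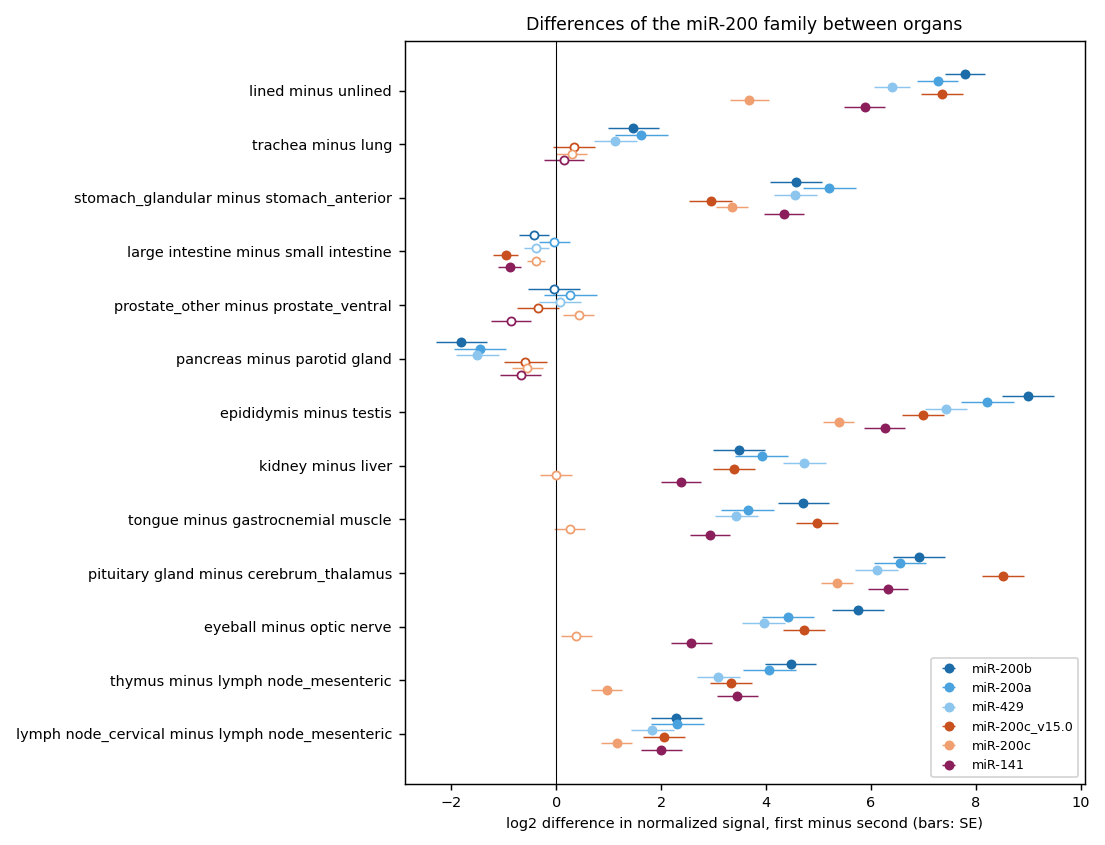
Log2 differences in normalized signal (points, with bars for 1 SE) of the 6 miR-200 family IDs for lined minus unlined organs and for 12 pairs of organs; filled points had an adjusted p under 0.05 by limma and open points did not. Filled points to the right of 0 fill the rows of lined organs, glandular stomach, epididymis, pituitary gland, thymus and cervical lymph node. The row of the cervical lymph node rests on 1 array, and the prostate row holds open points only.

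Organs were then compared in 12 pairs (limma with 1 term per organ, over all arrays of the perfused rats). All organs share one estimate of the spread, and the cervical lymph node array of rat 4 widened it: the SE of a pair of organs was 0.49 for miR-200b with that array and 0.24 without it. Counts from the marker lists are given with the pairs, and their part in the members' differences was not tested.

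Glandular against anterior stomach sets a columnar, secreting mucosa against the squamous forestomach of the rat. All 6 members were higher in the glandular part, against 28.7% of the miRNAs tested. For miR-200a the signals were 4843, 5528 and 8032 in the glandular and 135, 148 and 215.47 in the anterior stomach, so that the groups lay far apart. The log2 difference was 5.20 ± 0.50 (SE), adjusted p = 5.22e-17. It was 4.57 ± 0.49 (SE), adjusted p = 1.06e-14 for miR-200b and 4.34 ± 0.38 (SE), adjusted p = 4.33e-19 for miR-141. The smallest was that of miR-200c_v15.0, with 3007, 3405 and 3524 against 491, 376 and 431, a difference of 2.94 ± 0.40 (SE), adjusted p = 2.39e-10. Of the other epithelial miRNAs 7 of 10 were higher and 2 lower, and 7 of 9 mesenchymal and muscle miRNAs were lower in the glandular part. Of 5 lymphoid miRNAs 1 was higher and 1 lower, and 1 of 4 neural miRNAs was higher.

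Epididymis against testis compares the epithelial duct that stores sperm with the organ that makes them. All 6 members were higher in the epididymis, against 17.7% of miRNAs tested. All but 1 were not well above background on any testis array, so only lower bounds can be given, as the mean of the brighter organ against the lowest signal that was well above background on the dim arrays. The level was at least 207-fold higher for miR-200b (adjusted p = 1.37e-34), at least 121-fold for miR-200a (adjusted p = 1.49e-30) and at least 37.0-fold for miR-141 (adjusted p = 1.74e-30). The exception was miR-200c_v15.0, which was detected on 1 of 3 testis arrays. Its signals were 4923, 4604 and 5764 in epididymis and 40.5, 29.4 and 54.3 in testis, with the groups far apart. The log2 difference was 6.98 ± 0.40 (SE), adjusted p = 1.2e-32, a size that rests in part on testis signals not called detected. Of the other epithelial miRNAs 6 of 10 were higher and 2 lower in epididymis, where 5 of 9 mesenchymal and muscle miRNAs and 4 of 5 lymphoid miRNAs were also higher. Neural miRNAs had 3 of 4 lower and 1 higher.

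The pituitary gland has an anterior lobe of epithelial origin joined to nervous tissue, and it was set against the thalamus. All 6 members were higher in the pituitary gland, against 15.9% of miRNAs tested. The signal of miR-200c_v15.0 was 4039.6, 4309.7 and 5002 in the pituitary gland and 10.8, 15.1 and 10.8 in the thalamus, where 1 array detected it. The log2 difference was 8.52 ± 0.40 (SE), adjusted p = 1.03e-39, a size that rests on the floor, and with a floor 4 times as high it was 6.68. Fitted folds were 120.5 for miR-200b (limma, adjusted p = 1.22e-25), 80.0 for miR-141 (adjusted p = 1.12e-30) and 40.7 for miR-200c (adjusted p = 1.52e-33). No thalamus array detected these members, and their signals there lay at or just above the floor. Their folds therefore rest on the floor too and are not lower bounds. With a floor 4 times as high the log2 differences were 5.08 for miR-200b, 4.32 for miR-141 and 3.35 for miR-200c. All 4 neural miRNAs were lower in the pituitary gland (median -5.45), 2 of 9 mesenchymal and muscle miRNAs and 1 of 5 lymphoid miRNAs were lower, and of the other epithelial miRNAs 4 of 10 were higher and 1 lower. Both acinar miRNAs were called higher (median 0.64), but their sum was at most 47.7 on any array outside the pancreas, so this difference lies near the floor.

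Kidney against liver compares an organ of tubular epithelium with one of hepatocytes. In kidney 5 of 6 members were higher, against 18.0% of miRNAs tested. The signals of miR-200b were 1307, 1084 and 1302 in kidney and 78.1, 121 and 137.9 in liver, a log2 difference of 3.49 ± 0.49 (SE), adjusted p = 9.45e-10. For miR-200a they were 849, 753 and 963 and 38.9, 56.2 and 82.6, with a difference of 3.91 ± 0.50 (SE), adjusted p = 3.63e-11. The kidney arrays lay above the liver arrays for both. miR-429 was at least 17.8-fold higher (adjusted p = 7.58e-20). The members of the other cluster were low in kidney: miR-200c_v15.0 was 140.0, 136 and 165.02, miR-141 was 51.1, 58.1 and 60.5, and miR-200c was at the floor on all 3 arrays. Their bounds were at least 4.08-fold for miR-200c_v15.0 (adjusted p = 1.81e-12) and at least 1.57-fold for miR-141 (adjusted p = 6.48e-08). With another background correction (normexp) the sign of both turned, to -0.16 for miR-200c_v15.0 (adjusted p = 0.642) and -0.93 for miR-141 (adjusted p = 0.00571), and miR-200c was lower in kidney at -1.70 (adjusted p = 3.79e-05). The differences of miR-200b, miR-200a and miR-429 kept their direction under every setting run. In kidney 2 of 10 other epithelial miRNAs were higher and 3 lower, 3 of 9 mesenchymal and muscle miRNAs and 1 of 4 neural miRNAs were higher, and 3 of 5 lymphoid miRNAs and the liver's miR-122 were lower.

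Tongue was set against a limb muscle and the eyeball against the optic nerve. In tongue, 5 members were above gastrocnemial muscle, against 7.54% of miRNAs tested. Tongue arrays gave 365, 314 and 343 for miR-200c_v15.0 and 280.0, 299 and 273 for miR-200b, and no muscle array detected either. The bounds were at least 19.7-fold (adjusted p = 3.86e-21) and at least 16.5-fold (adjusted p = 6.53e-15). With normexp these were the 2 members still called (log2 differences 1.90 and 1.66), and miR-200a (0.89), miR-429 (0.75) and miR-141 (0.47) lost their calls. In the eyeball, 5 members were above the optic nerve, against 25.2% of miRNAs tested. There miR-200b was 561, 657 and 539 and miR-141 was 68.3, 82.9 and 47.8. The bound for miR-200b was at least 45.2-fold (adjusted p = 6.91e-20). Of the other epithelial miRNAs 5 of 10 were higher in tongue and 8 of 10 in the eyeball, where 5 of 9 mesenchymal and muscle miRNAs and 1 of 4 neural miRNAs were higher too and 2 neural miRNAs lower. In tongue 1 of 9 mesenchymal and muscle miRNAs and 1 of 4 neural miRNAs were lower. In both pairs the member without a call was miR-200c, which was not well above background on any array of eyeball, optic nerve or gastrocnemial muscle and was detected on 2 of 3 tongue arrays.

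In trachea against lung the calls fell within 1 gene cluster. The 3 members from chromosome 5 were higher in trachea, against 11.3% of miRNAs tested, and the 3 IDs from chromosome 4 did not pass the test. The signals of miR-200b were 1450.2, 943 and 1493 in trachea and 462, 413 and 503 in lung, with no overlap and a log2 difference of 1.47 ± 0.49 (SE), adjusted p = 0.0151. For miR-200a they were 1365, 898 and 1205 and 359, 325 and 435, again without overlap, and the difference was 1.62 ± 0.50 (SE), adjusted p = 0.00813. For miR-429 the difference was 1.13 ± 0.41 (SE), adjusted p = 0.0263. By contrast, miR-141 was 232, 186 and 262 in trachea and 200.1, 192.1 and 215.04 in lung, where the ranges overlapped and the difference was 0.15 ± 0.38 (SE), adjusted p = 1. For miR-200c_v15.0 it was 0.35 ± 0.40 (SE), adjusted p = 0.922. Of the marker lists, 4 of 9 mesenchymal and muscle miRNAs were higher in trachea (median difference 2.02), 2 of 5 lymphoid miRNAs were lower, and of 10 other epithelial miRNAs 1 was higher and 1 lower. With rat 5 or rat 6 left out 0 members were called, while the difference of miR-200b was 1.61 and 1.42, that of miR-200a 1.70 and 1.70 and that of miR-429 1.20 and 1.13, so that the calls were lost and not the size. Without the cervical lymph node array of rat 4 the 3 members from chromosome 5 were called with the same differences. Adjusted p was then 1.01e-07 for miR-200b, 6.7e-08 for miR-200a and 6.33e-06 for miR-429 (limma), and the IDs from chromosome 4 again did not pass. With slide as a random block 1 was called, miR-200a. None was called with scaling over all miRNAs (miR-200b difference 0.76), a scaling that shifts the median of all miRNAs in this pair by -0.27.

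Large against small intestine compares mucosa from both ends of the bowel. In the large intestine 2 of 6 members, miR-200c_v15.0 and miR-141, were lower. This count is near the share over all miRNAs tested, of which 34.5% were lower. The difference was -0.96 ± 0.23 (SE), adjusted p = 0.000239 for miR-200c_v15.0 and -0.89 ± 0.22 (SE), adjusted p = 0.000383 for miR-141 (9 arrays each). It was -0.03 ± 0.29 (SE), adjusted p = 1 for miR-200a. Without the cervical lymph node array of rat 4, which enters only the estimate of the spread, 5 members were lower. Of the other epithelial miRNAs 8 of 10 were lower and 1 higher, and 3 of 5 lymphoid, 1 of 9 mesenchymal and muscle and 1 of 4 neural miRNAs were lower. Under scaling over all miRNAs, which moves the median of all miRNAs in this comparison by 0.33, and in the authors' table, no member passed the test.

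Pancreas against parotid gland compares digestive enzyme glands. In pancreas miR-200b, miR-200a and miR-429 were lower, against 15.9% of miRNAs lower. For miR-200b the signals were 1249.6, 891 and 1288 in pancreas and 3813, 3481 and 4634 in parotid gland, with no overlap and a difference of -1.81 ± 0.49 (SE), adjusted p = 0.000742. For miR-200c_v15.0 they were 3579, 2987 and 3893 and 4671, 4383 and 6873, also without overlap, and the difference was -0.59 ± 0.40 (SE), adjusted p = 0.242. The pancreas arrays were the dimmest of the atlas, and the size depended on the scaling: over all miRNAs it was -2.75 for miR-200c_v15.0 and all 6 members were lower, while the median of all miRNAs moved by -1.71. Without the cervical lymph node array of rat 4, 6 members were also lower. In pancreas 5 of 10 other epithelial miRNAs were lower and 2 higher, and 4 of 9 mesenchymal and muscle miRNAs were lower and 1 higher. Both acinar miRNAs were higher (median 8.66), as was 1 of 4 neural miRNAs, and of 5 lymphoid miRNAs 1 was higher and 1 lower.

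No member passed the test between the prostate samples, although 27.0% of miRNAs did. For miR-141 the signals were 872, 1705 and 1196 in the remaining lobes and 1756, 2330.1 and 2597 in the ventral lobe, with no overlap, and the difference was -0.86 ± 0.38 (SE), adjusted p = 0.0984. For miR-200b it was -0.05 ± 0.49 (SE), adjusted p = 1. Mesenchymal and muscle miRNAs differed between the lobes, with 8 of 9 higher in the remaining lobes (median 1.49), as were 2 of 10 other epithelial and 1 of 4 neural miRNAs. With rat 4 left out, 2 members passed the test, miR-200a (higher, 0.82) and miR-141 (lower, -0.78). Without the cervical lymph node array alone, miR-141 passed it.

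Thymus and cervical lymph node were each set against the mesenteric lymph node. In the thymus all 6 members were higher, against 23.5% of miRNAs tested. The thymus signals of miR-141 were 126, 119.6 and 111, and no mesenteric array detected it, which gives at least 9.6-fold (adjusted p = 7.85e-14). For miR-200c_v15.0 the signals were 332, 343 and 301 in thymus and 30.1, 35.1 and 31.8 in the mesenteric node, a difference of 3.33 ± 0.40 (SE), adjusted p = 2.76e-12. Without rat 5, miR-200c lost its call and 5 members were called. Of the other epithelial miRNAs 4 of 10 were higher in the thymus, as was 1 of 4 neural miRNAs, and 2 of 5 lymphoid and 3 of 9 mesenchymal and muscle miRNAs were lower. Between the nodes, 6 members were called higher in the cervical node, against 4.93% of miRNAs tested, with 2 of 10 other epithelial miRNAs also higher. That count rests on 1 array and fell to 0 without it, as described next.

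Rats gave close values in most organs, and 1 array stood far from the others. The mean log2 signal of the 5 members (miR-200c_v15.0 for miR-200c) had a range over the 3 rats of 0.35 in the median of the organs that detected all 5 on every array. In the cervical lymph node the range was 5.95. The signals of rats 4, 5 and 6 were 1501, 41.1 and 39.1 for miR-200c_v15.0 and 471, 12.3 and 14.3 for miR-141. For miR-200a, miR-200b and miR-429 rat 4 had 1304, 1263 and 489, while rats 5 and 6 were at the floor. Part of the other epithelial miRNAs moved with it: 6 of the 10 on the list were detected in rat 4, 1 in rat 5 and none in rat 6. The summed signal of the list was 676, 114 and 115. Among these, miR-375, known from endocrine and secretory epithelium, was 292, 10.8 and 10.8, and miR-96 was 198.6, 10.8 and 12.6. By contrast, miR-192 was detected in rats 4 and 5 but was not higher in rat 4 (13.9, 16.1 and 15.9). The remaining miR-31, miR-182 and intestinal miR-194 and miR-215 were at the floor in all 3 rats. The 5 lymphoid miRNAs were detected on all 3 arrays, with sums of 20377, 29685 and 34838, the lowest in rat 4. The part of these other miRNAs in the family's signal was not tested. Without that array the cervical and mesenteric nodes differed by 0.31 ± 0.26 (SE) for miR-200c_v15.0 (limma, adjusted p = 1).

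Esophagus, cecum, the remaining prostate lobes and skin also had wide ranges. In the esophagus, miR-200b was 834, 329 and 1678 and miR-141 was 182.9, 95.1 and 330.2, lowest in rat 5 and highest in rat 6. The summed signal of the other epithelial miRNAs was 6191, 2562 and 9941, in the same order, and that of mesenchymal and muscle miRNAs was 30384, 35558 and 13350.1, lowest in rat 6. In the cecum, miR-200a was 1221, 3929.9 and 5408, with rat 4 low. There the other epithelial miRNAs summed to 5656, 15382 and 16357, and the lymphoid miRNAs to 6259, 2884 and 3069.7, highest in rat 4. In the remaining prostate lobes, miR-200a was 3208, 11490.5 and 11386, and the other epithelial miRNAs summed to 1496, 2277 and 2285. Of that list miR-205 went the other way, at 538, 512 and 405. The mesenchymal and muscle miRNAs summed to 12226, 13559 and 13130. Among them the muscle miR-1 (124, 693 and 740) and miR-133b (500, 1298 and 1487) were also lowest in rat 4, while miR-143 was 9977, 9658 and 9219. In skin, miR-200b was 300.5, 433 and 578, and the other epithelial miRNAs summed to 2255, 3042 and 4151, in the same order. Mesenchymal and muscle miRNAs there summed to 24117, 11477 and 10911, a sum led in rats 4 and 5 by the muscle miR-133b (10262, 3540.3 and 2688), while miR-143 was 1218, 1225 and 1270.4. Whether the share of epithelium in the piece collected accounts for these ranges was not tested.

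**Figure D3:**
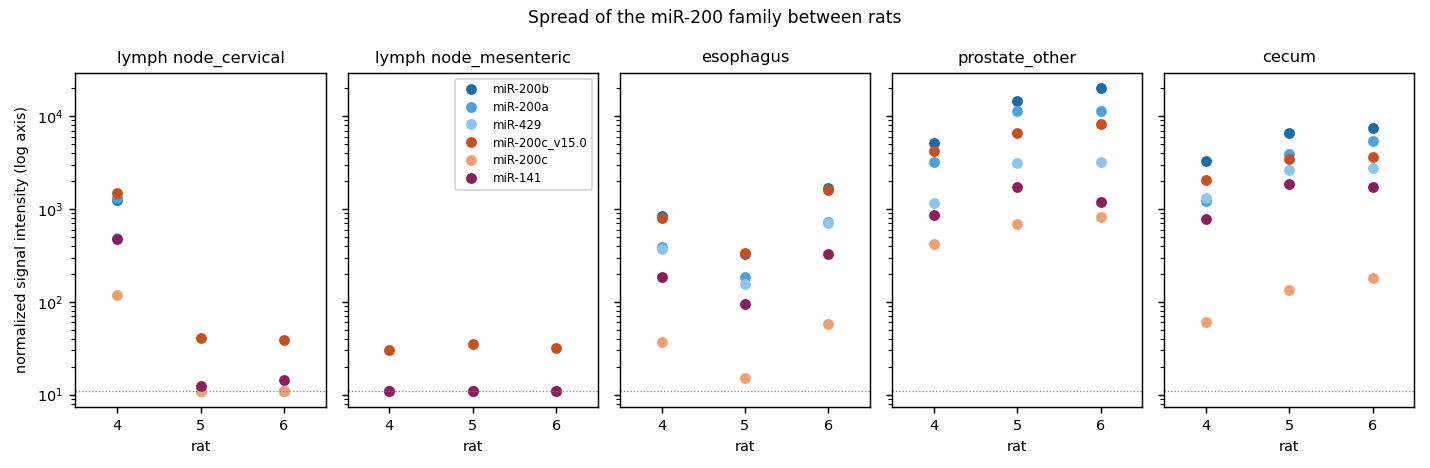
Normalized signal intensity (log axis, arbitrary units) of the 6 miR-200 family IDs in rats 4, 5 and 6 in the cervical and mesenteric lymph nodes and in 3 other organs with wide ranges, with a dotted line at the floor of 10.8. In the cervical lymph node, rat 4 lies far above rats 5 and 6 for all 6 IDs, and in the cecum and the remaining prostate lobes rat 4 lies below them.

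The organ pattern closest to each member was that of a member of its own cluster. Across the 29 organs that detected both on all arrays, the organ means of miR-200b and miR-200a correlated at r = 0.99 and those of miR-200b and miR-429 at 0.99. Across 28 organs, miR-200c_v15.0 and miR-141 correlated at 0.96. Between clusters, r was 0.86 for miR-200b and miR-200c_v15.0, which share a seed, and 0.91 for miR-200a and miR-141, which share the other. The second ID, rno-miR-200c, correlated over 23 organs at 0.93 with rno-miR-200c_v15.0, at 0.83 with miR-141 and at 0.83 with miR-200a of the other cluster. These are descriptions over organ means that share arrays and scaling. The part of cross-hybridization between members of similar sequence in them was not tested.

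The balance of the clusters was therefore read organ by organ, as the mean log2 signal of miR-200c_v15.0 and miR-141 minus that of miR-200a, miR-200b and miR-429. Its absolute value has no meaning, because probes differ in brightness, but its differences between organs do not depend on the scaling of an array. Over the 28 organs with all 5 members detected on all arrays it ran from -3.27 to 1.07 (median -0.35), with an SD between organs of 0.83 and a median SD within organs of 0.11. Kidney stood at the low end, with -3.45, -3.16 and -3.20 in rats 4, 5 and 6, well below the next organ, the urinary bladder, with -1.14, -1.15 and -1.15. At the high end were the Harderian gland with 1.13, 1.12 and 0.95, the pancreas with 0.98, 1.07 and 0.90 and the pituitary gland with 0.90, 0.70 and 0.90. These 3 organs lay above all others on every array. Scaling over all miRNAs, the higher floor and the authors' table leave this measure as it is. Under the 6 settings that can change it (quantile normalization, normexp, medians over spots and each rat left out), kidney was lowest of the 28 organs, from -3.62 to -2.58. At the high end, pancreas was at 0.50 under normexp and the pituitary gland was at 0.34 with medians over spots. Trachea (-1.17, -1.12 and -0.82) and lung (0.12, 0.22 and 0.03) did not overlap. The corresponding balance of the seeds, miR-200a and miR-141 against the other 3, spanned 1.29 over the same organs, where the cluster balance spanned 4.33. Without kidney the cluster balance spanned 2.22 and the seed balance 1.29.

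**Figure D4:**
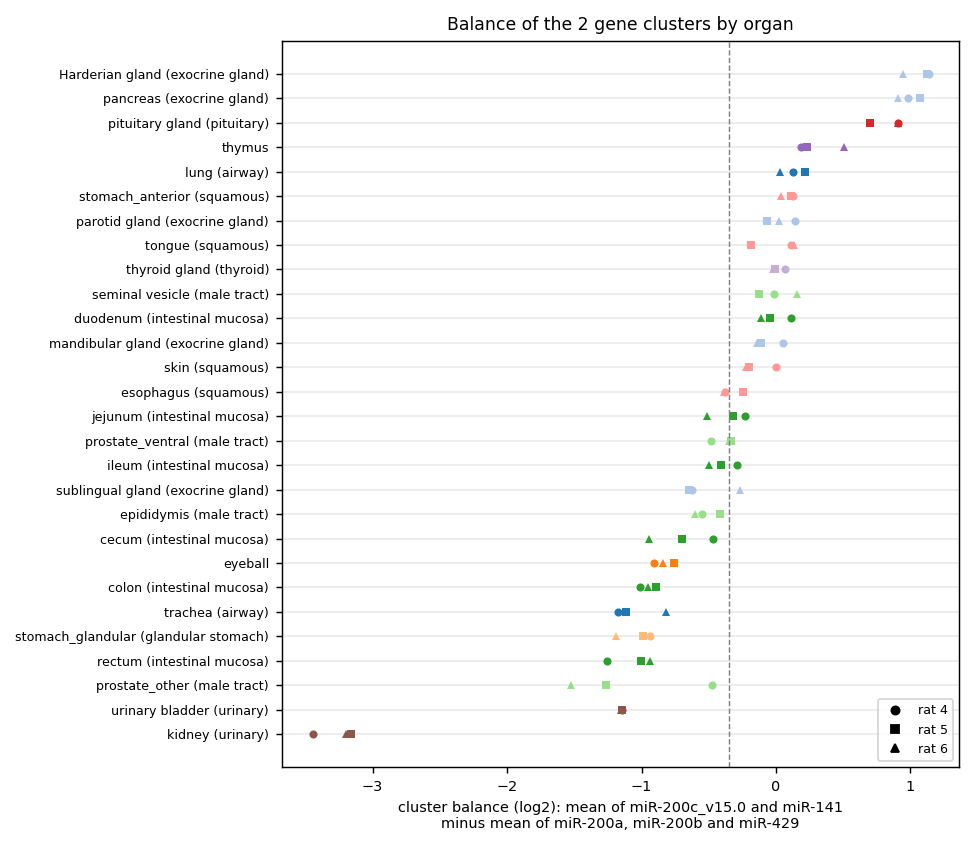
Balance of the chromosome 4 against the chromosome 5 cluster in 28 organs, as the mean log2 signal of miR-200c_v15.0 and miR-141 minus that of miR-200a, miR-200b and miR-429, with 1 point per perfused rat coloured by organ class and a dashed line at the median of -0.35. Kidney lies near -3.27, apart from all other organs, and Harderian gland, pancreas and pituitary gland lie highest.

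Classes of organs were compared in the same measure. The mean was 0.30 over 5 exocrine glands and -0.58 over 6 intestinal segments, a difference of 0.88 (exact two-sided permutation test over organs, p = 0.026, adjusted p = 0.0779 over 3 comparisons). For the 4 squamous organs the difference from intestinal mucosa was 0.49 (exact p = 0.0571, adjusted p = 0.0857). For the 4 organs of the male tract it was 0.0825 (exact p = 0.781, adjusted p = 0.781). None passed the threshold of 0.05 after adjustment, and exocrine glands (from -0.51 to 1.07) overlapped the intestinal segments (from -1.07 to -0.01).

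The 2 IDs of miR-200c did not keep a constant distance. In the 23 organs that detected both on all arrays, the log2 signal of rno-miR-200c_v15.0 minus that of rno-miR-200c ran from 2.97 to 4.92 (median 3.92). The differences in rats 4, 5 and 6 were 2.91, 2.94 and 3.06 in the sublingual gland and 4.97, 5.05 and 4.73 in the duodenum, with no overlap. All 3 small-intestinal segments and the cecum had the widest distances. The median SD within an organ was 0.14, against an SD of 0.56 between organs. Organ rankings of miR-200c therefore depend on the ID: prostate_other led for rno-miR-200c and prostate_ventral for rno-miR-200c_v15.0, and the duodenum ranked 13 and 2 of 55.

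The opposite strands of the hairpins were on the array for 4 members. miR-200c* and miR-141* were detected on no array of the perfused rats. miR-200a* was detected on 15, and on all 3 arrays of ileum (21.8, 24.2 and 25.2) and rectum. miR-200b* was detected on 49, and on all 3 arrays of 13 organs, among them jejunum (98.4, 90.0 and 67.3), glandular stomach (72.3, 85.3 and 110.2) and prostate_other (40.8, 131 and 184). In the last of these rat 4 was again the lowest. The highest mean of miR-200b* was that of the pancreas (644), but it was detected there on only 1 of 3 arrays, the dimmest of the atlas before scaling, and that value has no firm size. Of the 4 strands on the array, only miR-200b* and miR-200a* entered the comparison of lined with unlined organs. A miRNA entered it by detection on all 3 arrays of at least 1 organ, and for both strands all such organs were lined. In lined organs miR-200b* was higher by 1.72 ± 0.31 (SE) and miR-200a* by 0.36 ± 0.10 (SE), given as a description.

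Among 272 other miRNAs detected on at least 10% of the arrays, those with the organ pattern most like the mean of the 5 members were miR-96 (r = 0.89), miR-375 (r = 0.79), miR-183 (r = 0.76) and the 2 IDs of miR-205 (r = 0.66 and 0.62), over 55 organ means of log2 signals. Over the 28 organs with the family detected, r was 0.58 for miR-96, 0.72 for miR-375 and -0.32 for miR-205. The sign for miR-205, a squamous miRNA, thus turned once organs without the family were set aside. The most unlike patterns were those of miR-34a (-0.57), miR-338 (-0.57) and lymphoid miR-150 (-0.57).

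Perfusion, the only treatment of the study, was made to remove blood, and it was compared in 5 organs (3 rats against 3). No member passed the test in any of them by limma, and neither did any other of the 191 miRNAs tested (0.0% called in each organ; 10 had an unadjusted p under 0.05 in liver, 13 in lung, 4 each in kidney and heart_atrium and 3 in heart_interventricular septum). The paper reports the blood-cell miRNAs miR-451 and miR-144 as clear in these organs without perfusion and not with it. The lack of calls with 3 rats against 3 therefore does not show that perfusion changed no miRNA. In kidney, miR-200b was 1212, 1187 and 1149 without perfusion and 1307, 1084 and 1302 with it. These values overlapped, and the log2 difference was 0.05 ± 0.17 (SE), adjusted p = 1. Kidney miR-141 was 70.2, 82.3 and 42.1 without perfusion and 51.1, 58.1 and 60.5 with it, a difference of -0.15 ± 0.15 (SE), adjusted p = 1, with the untreated rats more variable than the perfused ones. With untreated rat 3, the lowest, left out, the difference was -0.43 and passed the test (adjusted p = 0.0264). In lung, miR-200c_v15.0 was 664, 588 and 701 without perfusion and 678, 644 and 678 with it, a difference of 0.04 ± 0.19 (SE), adjusted p = 1. Liver miR-200b was 63.1, 121 and 73.6 without perfusion and 78.1, 121 and 137.9 with it, with overlapping ranges and a difference of 0.41 ± 0.17 (SE), adjusted p = 0.628. No member's values separated perfused from untreated rats in any organ, and with 3 rats against 3 an exact two-sided permutation test cannot give a p below 0.1. In both heart samples every member was at the floor on all 12 arrays. At that level miR-200c_v15.0 was still called detected on 1 untreated and 1 perfused array of heart_atrium and on 1 perfused array of heart_interventricular septum. No member passed the test for a perfusion effect that differs between organs (limma, interaction, adjusted p = 1 for each of the 6), and 0 of the 191 miRNAs did, with 5 at an unadjusted p under 0.05. All arrays of rats 1, 2 and 3 were scanned on day 1, and those of rats 5 and 6 on day 2 or 3. Perfusion and scan day therefore cannot be fully told apart.

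**Figure D5:**
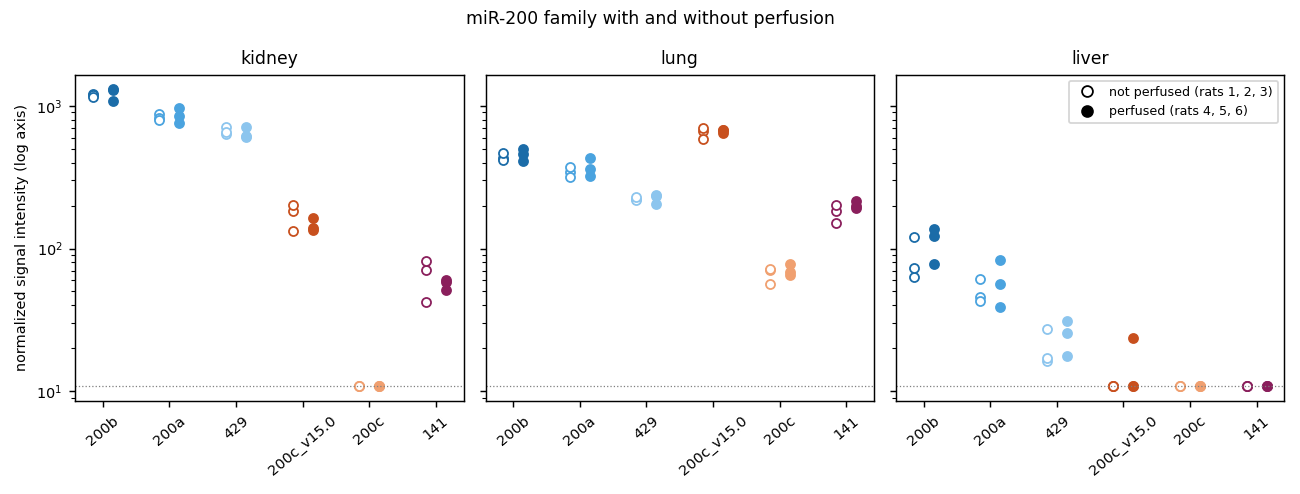
Normalized signal intensity (log axis, arbitrary units) of the 6 miR-200 family IDs in kidney, lung and liver of untreated rats 1, 2 and 3 (open points) and perfused rats 4, 5 and 6 (filled points), with a dotted line at the floor of 10.8. Open and filled points overlap or lie on the floor for each ID in each of the 3 organs.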

How the data were processed

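Total RNA (0.1 µg per array) was labelled with Cy3 and hybridized by the authors to custom Agilent rat miRNA arrays carrying probes for miRBase 15.0 and 16.0. According to the submitters' processing notes and the file headers, spots were read with Agilent Feature Extraction 10.7.3, and the deposited values are background-subtracted signal intensities of each spot, not scaled between arrays. The authors' own table holds signal intensities per miRNA scaled to the 75th percentile of each array. It was used as an alternative only, and 21 of its rows that are not array miRNAs were left out.

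From the deposited spots, outlier spots were removed (1.63 to 6.42% per array), spots were averaged per probe and probes per miRNA, and arrays were brought to a common 75th percentile, taken over the 37 miRNAs that every one of the 180 arrays detected. A floor of 10.8 was then set and log2 taken. Comparisons used limma 3.58.1 in R 4.3.3 (lmFit and eBayes with trend) and Benjamini-Hochberg adjustment over all miRNAs tested, with 0.05 as the threshold. Lined and unlined organs were compared over organ means. Organ pairs were contrasts in 1 fit of all arrays of rats 4, 5 and 6. For these comparisons 345 miRNAs were tested, and for perfusion 191 miRNAs in 30 arrays. Classes of organs were assigned by hand from anatomy. Cluster balance was compared by exact permutation over organs. The fits were tested on simulated data with known changes. The simulation set no floor and kept mean levels well above it, so signals at the floor were not covered. Tables and figures were made with Python 3.11.15, numpy 2.4.6, pandas 2.3.3, scipy 1.17.1 and matplotlib 3.10.9. The members and the miRNA lists were chosen with earlier results of these data known.

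Organs labelled with the same rat number come from the same animal. As a check, residuals of different organs correlated at 0.0496 on average within a rat and at -0.0246 between rats, and within a rat at 0.171 on the same slide and 0.0321 on other slides. The rat as a replicate block was an alternative, as were 3 other scalings or sources (all miRNAs, quantile, the authors' table), normexp with an offset of 50 on median spot and background signals (mean spot signals were not used here), a floor 4 times as high, medians over spots, other filters, each rat left out, the 8 arrays whose labels carry 2 rat numbers left out, slide (23) or scan day (3) as a block, and the cervical lymph node array of rat 4 left out. The last of these and scan day were chosen after seeing the data. The 8 arrays with 2 rat numbers came from medulla oblongata, pituitary gland, cervical, pectoral and lumbar spinal cord, and femoris, gastrocnemial and soleus muscle. Their titles say rat 5 and their source names rat 6. The titles were followed, as the paper's sample list gives the same rat. Members named in the text are all 6 IDs. Other miRNAs are named from the lists or as the 5 most and 3 least like in organ pattern. The number of arrays, 3 per organ, limits the precision.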

Additional observations from a re-analysis of the deposited data

How the results depend on the processing

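Of the differences between lined and unlined organs, all 6 members stayed higher under every setting run, and the counts of members called between glandular and anterior stomach, epididymis and testis, pituitary gland and thalamus, and eyeball and optic nerve stayed within 1.5 times. With the rat as a replicate block, 6 members were called between lined and unlined organs and 3 between trachea and lung, and neither this block nor scan day as a block changed the count of members called in any comparison it was run on. Counts that moved were as follows. With scaling over all miRNAs, 0 members were called between trachea and lung, 0 between large and small intestine and 6 between pancreas and parotid gland. Quantile normalization gave 1 between large and small intestine and 6 between pancreas and parotid gland, and with the authors' table these counts were 0 and 6. With slide as a random block, 1 was called between trachea and lung. With normexp, 2 were called between tongue and gastrocnemial muscle, and the kidney minus liver difference turned to -0.16 for miR-200c_v15.0, which lost its call, and to -0.93 for miR-141. There 3 members were called higher in kidney and 2 lower (miR-141, and miR-200c at -1.70), against 5 higher. A floor 4 times as high called 1 between the prostate samples. Between the lymph nodes, 0 were called with arrays of the compared organs only and 1 with a filter on those organs. Without the cervical lymph node array of rat 4, the counts were 5 for the intestines, 1 for the prostate samples, 6 for pancreas and parotid gland and 0 for the lymph nodes. Leaving out each rat gave 0 to 3 for trachea and lung, 0 to 2 for the prostate samples, 2 to 4 for pancreas and parotid gland, 5 to 6 for thymus, 0 to 6 for the lymph nodes and 0 to 1 for perfusion in kidney. The cause was not tested. Signals near the floor limit what can be said of kidney, liver and lymphoid organs, and dim arrays what can be said of pancreas.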
